A study of Homo sapiens with 6 samples.

Results

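The genes described here encode integrins, laminins and collagens. They are the protein-coding genes with symbols starting ITGA, ITGB, LAMA, LAMB, LAMC, or COL followed by digits and A, with a summed count of at least 200 over the 4 libraries of mimic-transfected cells, and ITGB1BP1 and ITGB3BP were left out. The rule found 50 members among 84 annotated genes of these families, of 13078 genes that passed the same minimum and 60708 genes counted in all. The members were 8 of 18 integrin alpha genes, 7 of 10 genes with ITGB symbols, 10 of 12 laminin genes, 7 of 11 fibrillar collagen genes, 6 of 9 basement membrane and network collagen genes and 12 of 24 other collagen genes. The ITGB symbols include ITGBL1, a member, and ITGB1BP2, which is none, and neither gene encodes an integrin chain. They are counted under integrin beta by their symbols. The minimum uses the mimic counts, so the presence of a gene on the list says only that it was counted there. COL9A3 with 214 counts and LAMA2 with 217 lay just inside the minimum, and COL4A3 with 157 and COL3A1 and COL24A1 with 137 each lay just outside it.

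Ago-RIP-seq, sequencing of the RNA that is pulled down with an antibody against Argonaute-2 (AGO2-IP), was performed in MDA-MB-231 cells, a cultured line from a human breast cancer without hormone receptors or HER2 amplification. According to the methods, the cells received 25 nM of a synthetic miR-99b-5p mimic or of a scrambled negative control and were harvested 18 hours later. The mimic cells gave 2 AGO2-IP libraries and 2 libraries of the flow-through, which is the unbound RNA, labelled as biological replicates 1 and 2 with 1 library of each fraction per replicate. The control cells gave 1 AGO2-IP and 1 flow-through library, by their labels. The study's own list of libraries instead gives these as control replicates 1 and 2 and names no fraction, and its methods speak of 2 replicates per condition. The labels were followed, and if both control libraries held the same fraction, the control ratios given here would not compare fractions and the comparisons with the control would set the mimic against only 1 of 2 control libraries. All groups are transfected cells of 1 line, no IgG library was analysed here, and a mimic loads AGO2 with far more of 1 miRNA than cells usually hold.

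An integrin is a receptor of 1 alpha and 1 beta chain in the plasma membrane that binds matrix outside the cell and links it to actin inside. Laminins are heterotrimers of an alpha, a beta and a gamma chain and, with the type IV collagen network, form the basement membrane that epithelial cells rest on. Collagens are triple helices of repeated glycine triplets, and in breast cancer the chains made by tumour cells and the integrins that bind them are known for their part in adhesion, migration and invasion. In AGO2-IP data a transcript that is loaded with miRNA-guided AGO2 is expected to gain over the flow-through, so each gene was followed as a level in each fraction and as the difference between fractions.

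The miRNA of the mimic is 22 nucleotides long and is encoded on the plus strand at chr19:51692618-51692639 (GRCh38.p14, RefSeq). It shares its seed, bases 2 to 8 (capitals), with 2 other human miRNAs, and the mature sequences are shown because the matches searched in the members follow from that seed.
hsa-miR-99b-5p: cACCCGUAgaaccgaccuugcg
hsa-miR-99a-5p: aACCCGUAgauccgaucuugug
hsa-miR-100-5p: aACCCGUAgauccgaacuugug

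A transcript that pairs with the seed carries ACGGGT (6 bases), extended to TACGGGT or ACGGGTA (7 bases). LAMA5, the alpha 5 chain of laminins, was the 1 member with such a match in the 3′ untranslated region (3′ UTR) of its representative transcript, 2% of 50 members searched. Of 11724 protein-coding genes tested, 6.68% had a match of 6 or more bases there and 2.22% one of 7 or 8 bases. Over every annotated 3′ UTR the figures were 3 members, or 6%, and 8% of 11726 genes. In coding sequence, 16 members (32%) held a match against 9.81% of 11732 genes, and the members' coding sequences were longer, with a median of 4281 bases against 1443. Per 10 kb of coding sequence the members held 0.943 matches and all tested protein-coding genes 0.568. The 22 coding matches lay in 8 collagens and in 8 integrins and laminins, and 5 of them spanned 7 bases. A match is a description of the letters and no evidence of a bound site.

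The sites below, 30 bases each with the match in capitals, are the LAMA5 3′ UTR match, the coding match of ITGB1, the most highly counted member, and the 5 coding matches of 7 bases. In GRCh38 the LAMA5 site lies in the last of 80 exons at chr20:62309222-62309251 on the minus strand. The ITGB1 site crosses from exon 15 to exon 16 of 16 at chr10:32901621-32908382 on the minus strand, the ITGB4 site lies in exon 25 at chr17:75742619-75742648 on the plus strand, and the LAMB2 site in exon 7 at chr3:49131113-49131142 on the minus strand. The COL4A1 site lies in exon 48 at chr13:110162269-110162298 on the minus strand, the COL5A1 site crosses from exon 21 to exon 22 at chr9:134765729-134766477 on the plus strand, and the LAMA1 site lies in exon 54 at chr18:6959379-6959408 on the minus strand.
LAMA5, 3′ UTR: actctaagctcTACGGGTgacagatcttgt
ITGB1, coding: gccaaatgggacACGGGTgaaaatcctatt
ITGB4, coding: gctggtggacgTACGGGTgcccctctttat
LAMB2, coding: gatcaccaaccTACGGGTgaacctgactcg
COL4A1, coding: aaattctttaccACGGGTActctttgctct
COL5A1, coding: cctcccggtgtcACGGGTAtggacggccag
LAMA1, coding: ctgcacgctcccACGGGTAcctgcagtgat

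Counts on genes came to between 38022779 and 48544756 in the mimic libraries and to 7772149 and 8076375 in the control libraries, and the members took between 0.242% and 0.897% of them. Rows that name no gene held 21.4% to 47.2% of the read pairs in the mimic libraries and 92.3% and 95.0% in the control libraries, and the mitochondrial share of gene counts was 43.4% for the control flow-through, 3.48% for the control pull-down and no more than 0.125% for any mimic library. The 6 listed markers of MDA-MB-231 (VIM, CD44, AXL, CAV1, S100A4, MSN) were counted in every library with summed levels of 2402 to 4300 CPM, counts scaled to library size. Of 9 markers listed as low or absent, ESR1, PGR, CDH1 and FOXA1 stayed at or below 3.96 CPM, EPCAM ran from 2.8 to 11.8 CPM and GATA3 from 8.26 to 24.8 CPM, while KRT8, KRT18 and KRT19 ran from 79.4 to 920 CPM. The fibroblast list (PDGFRA, PDGFRB, DCN, LUM, FAP, THY1), whose cells are a main source of collagen in tissue, summed to 2.33 to 26.5 CPM, and PDGFRB carried most of it. Endothelial and blood marker lists summed to 4.13 to 24.9 and 1.39 to 14.6 CPM.

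The most abundant members were integrin chains. On the scale of TMM-normalized CPM per kb of transcript, averaged over the 4 mimic libraries, ITGB1, the beta 1 chain shared by most matrix-binding integrins, stood at 189 and ITGA3, the alpha chain of the laminin receptor alpha 3 beta 1, at 111. COL4A2 at 35.8, ITGB5 at 34.1, LAMB3 at 31.7, COL5A1 at 24.4 and LAMA5 at 21.6 followed. The median member stood at 4.82 per kb, 16 members lay above 10 and 15 below 1, down to 0.128 for LAMA2. The libraries did not share 1 order. ITGB1 led in both AGO2-IP libraries at 319 per kb each, while ITGA3 led in both flow-through libraries at 87.7 and 231.

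**Figure D1:**
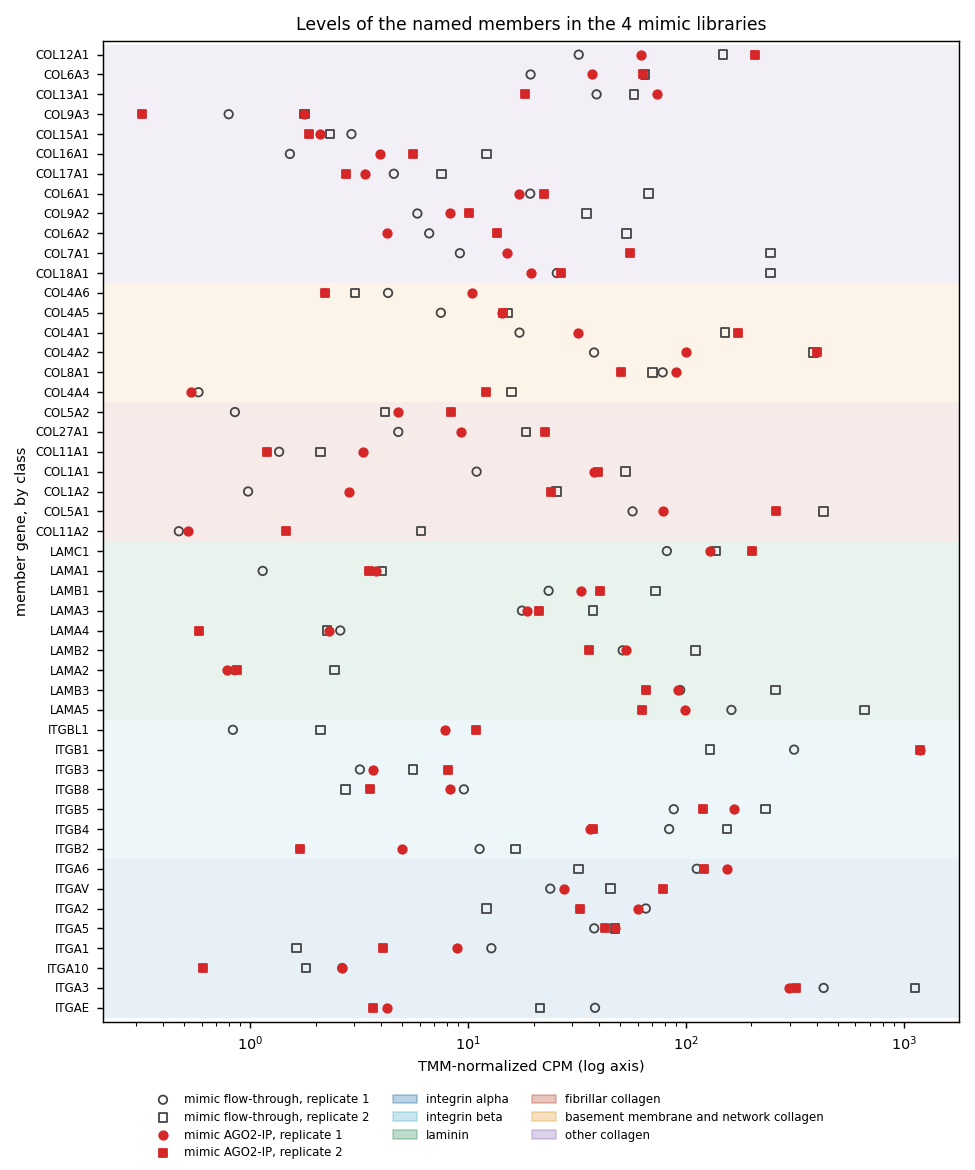
TMM-normalized CPM (log axis) of the members given by name in the 2 mimic flow-through (open) and 2 mimic AGO2-IP (filled) libraries, replicate 1 as circles and replicate 2 as squares, with classes as shaded bands. ITGB1 sits near 1191 in both AGO2-IP libraries, and 27 of the 50 members have their highest value in flow-through replicate 2.

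Flow-through replicate 2 held the highest normalized level of 27 members and flow-through replicate 1 the lowest of 24. Summed over the members, normalized CPM were 2066 and 5249 in the flow-through libraries and 3099 and 3856 in the AGO2-IP libraries. The 34 family genes under the minimum all had their highest raw count in flow-through replicate 2, as did 77% of 3328 other protein-coding genes with sums in the same range of 24 to 157.

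The comparison of mimic AGO2-IP with mimic flow-through asked which transcripts were associated with AGO2 in cells that held the mimic. Without a term for the replicate, edgeR's quasi-likelihood test called 0 of the 50 members (log2 fold change 1 or more in size and a Benjamini-Hochberg adjusted p of at most 0.05). Genome-wide it called 0.245% of the genes tested higher and 0.413% lower. At an unadjusted p under 0.05 there were 7 members, beside 23.8% of all genes, and PyDESeq2 called 6. With the replicate as a block, pairing each AGO2-IP library with its own flow-through, 3 members were called: ITGB1 and ITGBL1 were enriched in AGO2-IP and ITGAE was depleted. The block called 4.6% of all genes higher and 5.08% lower, so 2 and 1 of 50 members were at or below the background share. The members' log2 fold changes ran from -2.91 to 2.67 with a median of -0.16, beside a median of -0.11 over all genes tested, and 21 were above 0 and 29 below.

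Both AGO2-IP libraries lay above both flow-through libraries in 4 members, where 28.2% of all genes did so, and below both in 8 members, where 28.4% did so. In the remaining 38 members the fractions overlapped, against 5671 of 13078 genes. The members that overlapped were mainly collagens, 22 of 25, and laminins, 8 of 10, whereas 7 of 15 members with ITGA or ITGB symbols separated, ITGBL1 among them. COL15A1, a collagen of basement membrane zones, and COL17A1, a transmembrane collagen of hemidesmosomes, were the collagens that lay below in both AGO2-IP libraries, with log2 fold changes of -0.41 (SE 0.78) and -0.99 (SE 0.76).

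ITGBL1 and ITGB1 had the highest log2 fold changes of the members. ITGB1 (ENSG00000150093.20, chr10:32887273-33005792, minus strand, 3735-base transcript) stood at 314 and 129 normalized CPM in the flow-through libraries and at 1191 and 1192 in the AGO2-IP libraries. Both AGO2-IP libraries were several times above either flow-through library and close to each other. The log2 fold change was 2.42 with an SE of 0.65 and an edgeR adjusted p of 0.082, and with the replicate block it was 2.56 at an adjusted p of 0.00738. With each library's trend on GC content removed it was smaller, 1.75, at an edgeR adjusted p of 0.0414.

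ITGBL1 encodes a secreted protein with repeats like those of integrin beta chains and is no receptor chain. It was counted at 0.835 and 2.1 normalized CPM in the flow-through libraries and at 7.86 and 10.9 in the AGO2-IP libraries, so the groups did not overlap at this low level of 920 counts in all. Its log2 fold change was 2.67 (SE 0.84), with an edgeR adjusted p of 0.108 without the block and 0.0102 with it.

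ITGB2, the beta chain of leukocyte integrins, and ITGB4, the chain of the hemidesmosomal laminin receptor alpha 6 beta 4, lay lower in AGO2-IP. ITGB2 had 11.3 and 16.6 normalized CPM in the flow-through libraries and 5.01 and 1.7 in the AGO2-IP libraries, a log2 fold change of -2.06 (SE 0.81) with an edgeR adjusted p of 0.162 and of 0.0513 with the block. ITGB4 had 83.8 and 154 in flow-through and 36.3 and 37.6 in AGO2-IP, with a log2 fold change of -1.69 (SE 0.62) and an edgeR adjusted p of 0.145. Neither chain overlapped between fractions and neither passed the test. With the GC trend removed the ITGB4 value shrank to -0.50 and that of ITGB2 to -1.16.

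The other beta chains did not separate. ITGB5, which pairs with alpha V to bind vitronectin, had 88 and 232 normalized CPM in flow-through and 166 and 119 in AGO2-IP. ITGB3, the other main partner of alpha V, had 3.19 and 5.59 against 3.66 and 8.1. ITGB8, a chain known for activating latent TGF-beta, had 9.58 and 2.75 against 8.28 and 3.56. Their log2 fold changes of -0.17, 0.42 and -0.06 were all smaller than their SEs.

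Among the integrin alpha chains, ITGAE, the chain that lymphocytes use with beta 7 to bind E-cadherin, had the lowest log2 fold change of all members. It stood at 38.3 and 21.4 normalized CPM in the flow-through libraries and at 4.26 and 3.66 in the AGO2-IP libraries. Both AGO2-IP values were about equal and far under either flow-through value. The log2 fold change was -2.91 (SE 0.72), with an edgeR adjusted p of 0.0691, of 0.0082 with the block and of 0.046 with the GC trend removed. Of the 50 members, 12 overlap another protein-coding gene in the annotation. Among them, LAMB1 had 7352 counts over the mimic libraries against 73696 for DLD on the opposite strand. COL9A3 had 214 against 8972 for TCFL5 on the opposite strand, and ITGA1 had 1355 against 8065 for PELO on its own strand. HASPIN, a gene on the opposite strand inside the span of ITGAE, had 4670 counts over the mimic libraries against 3319 for ITGAE, and read pairs on both cannot be assigned without strand.

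ITGA3 lay at 429 and 1127 normalized CPM in flow-through and at 297 and 319 in AGO2-IP. The AGO2-IP libraries were below both flow-through libraries, but the log2 gap between the flow-through libraries, 1.40, lay between the sizes of the paired differences of -0.53 in replicate 1 and -1.82 in replicate 2. The log2 fold change of -1.34 (SE 0.64) had an edgeR adjusted p of 0.228 and shrank to -0.19 with the GC trend removed. ITGA6, the partner of beta 4 and beta 1 in laminin receptors, was the 1 alpha chain with both AGO2-IP libraries higher, 154 and 121 against 112 and 32.2, a log2 fold change of 0.93 (SE 0.69).

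ITGA5, the fibronectin receptor chain, showed 38 and 47.2 normalized CPM in flow-through and 47.3 and 42.4 in AGO2-IP, the closest set of values among the chains named. ITGAV, the alpha V chain that binds RGD motifs, showed 23.9 and 45.1 against 27.5 and 78.5. ITGA2, the collagen receptor chain, showed 65.5 and 12.2 against 60.5 and 32.7. The fractions overlapped in all 3, with log2 fold changes of 0.07, 0.62 and 0.26.

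Laminin chains had a median log2 fold change of -0.61 over 10 members, with 7 of 10 below 0, and none was called without or with the block. LAMA5 stood at 162 and 661 normalized CPM in flow-through and at 99.2 and 62.7 in AGO2-IP. All AGO2-IP values lay under the flow-through values, whose own gap was the larger part of the spread. The log2 fold change was -2.35 (SE 0.75) with an edgeR adjusted p of 0.113 and of 0.0689 with the block, and PyDESeq2 called it at an adjusted p of 0.0182. With the GC trend removed its value shrank to -0.66. LAMA5, which holds the 3′ UTR match printed above, was therefore not enriched over the flow-through.

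LAMB3 and LAMA3, chains of epithelial laminin, missed the threshold. LAMB3 had 94.1 and 258 normalized CPM in flow-through and 91.8 and 65.5 in AGO2-IP, below both but by little in replicate 1, with a log2 fold change of -1.17 (SE 0.66). LAMA3 had 17.7 and 37.4 normalized CPM in flow-through and 18.6 and 21.2 in AGO2-IP, and its fractions overlapped. LAMC1, the gamma chain of most other laminins, had the highest laminin value, 0.59 (SE 0.61), from 81.8 and 137 in flow-through and 129 and 201 in AGO2-IP. LAMB1, its usual beta partner, had 23.4 and 72.7 against 33.2 and 40.3 and a log2 fold change of -0.39.

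The basement membrane and network collagens did not separate in any of the 6 members, with log2 fold changes from -0.38 to 0.78. COL4A1 and COL4A2, the chains of the common type IV collagen trimer, differed far more between replicates than between fractions. COL4A1 stood at 17.2 and 152 normalized CPM in flow-through and at 32.1 and 174 in AGO2-IP, and COL4A2 at 37.9 and 384 against 99.7 and 401. In each fraction replicate 2 was the high one. COL4A6, the highest of this class at 0.78 (SE 0.87), and COL4A4, the lowest at -0.38 (SE 1.38), were rare, at 2.2 to 10.4 and 0.538 to 15.9 normalized CPM.

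Of the fibrillar collagens, COL5A2, a minor chain of type V fibrils, was the 1 member with both AGO2-IP libraries higher. It had 0.853 and 4.16 normalized CPM in flow-through and 4.76 and 8.39 in AGO2-IP, a log2 fold change of 1.39 (SE 0.90) with an edgeR adjusted p of 0.361. COL11A2, a cartilage collagen chain, was lowest at -1.74 (SE 1.13), from 0.472 and 6.11 in flow-through and 0.517 and 1.46 in AGO2-IP. Flow-through replicate 2 held 247 of its 353 counts, and COL11A2 passed the minimum through that library. COL1A1 and COL1A2, the chains of type I collagen, overlapped between fractions with log2 fold changes of 0.28 and 0.02.

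The other collagens had the lowest median of the classes, -0.75 over 12 members, with 10 below 0. COL18A1, the basement membrane collagen whose end fragment is endostatin, was lowest at -2.55 (SE 0.91). It stood at 25.6 and 244 normalized CPM in flow-through and at 19.5 and 26.6 in AGO2-IP, so flow-through replicate 1 lay within the AGO2-IP values and replicate 2 alone was high. Its edgeR adjusted p was 0.137, PyDESeq2 called it at an adjusted p of 0.0283, and without flow-through replicate 2 the log2 fold change was -0.16. COL6A1, a chain of microfibrillar type VI collagen, showed the same single high library, with 19.3 and 67.4 against 17.2 and 22.3. COL6A2, another chain of that collagen, had 6.64 and 53.5 against 4.24 and 13.5, so its replicate 2 was the higher one in both fractions. COL12A1, a collagen on the surface of fibrils, had the highest log2 fold change of the class, 0.58 (SE 0.81), from 32.2 and 148 in flow-through and 62.2 and 209 in AGO2-IP.

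PyDESeq2 called 2 members higher, ITGB1 and ITGBL1, and 4 lower, ITGAE, ITGB2, LAMA5 and COL18A1. Genome-wide it called 6.43% of the genes higher and 8.24% lower, so these counts are again near the background share.

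**Figure D2:**
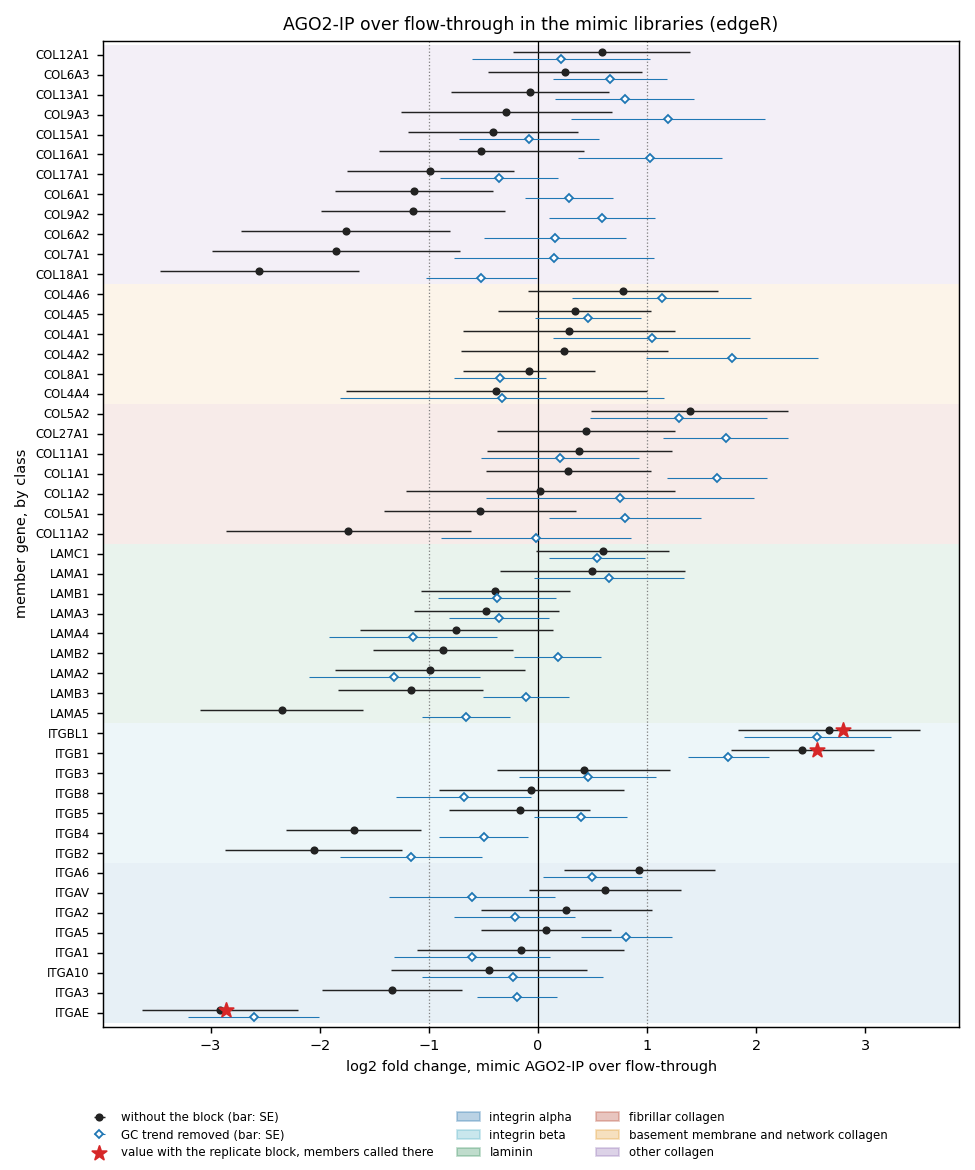
Log2 fold change of the members given by name, mimic AGO2-IP over mimic flow-through, from edgeR without the replicate block (black, bars SE), with each library's GC trend removed (blue diamonds, bars SE) and, as stars, the value with the block for the 3 members called there. ITGB1 and ITGBL1 lie on the right and ITGAE on the left under each fit, whereas COL18A1 moves from -2.55 to -0.52 and COL4A2 from 0.24 to 1.78 when the GC trend is removed.

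The low values gathered in members with GC-rich transcripts. Across the 50 members, Spearman's rho between the log2 fold change and the GC content of the transcript was -0.597 (Pearson's r -0.595), beside -0.545 (r -0.55) over 11747 protein-coding genes. These are relations across genes, which are no replicates of each other. In the 25 members with 38.3% to 54.5% GC the median log2 fold change was 0.25, and in the 25 with 54.6% to 67.4% GC it was -0.99. The relation differed between the replicates. In replicate 1 rho over the members was -0.107 and 8 of the GC-poor and 10 of the GC-rich members lay below 0. In replicate 2 rho was -0.699 and 14 and 22 did.

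GC content also went with the gap between the flow-through libraries. Replicate 2 over replicate 1 had a rho with GC of 0.552 over the members in flow-through and of 0.144 in AGO2-IP, and 0.755 and 0.00626 over the protein-coding genes. With each library's GC trend removed, the members' median log2 fold change moved from -0.16 to 0.19, the all-gene median from -0.11 to -0.05, and 29 of 50 members lay above 0. The collagens moved from a median of -0.08 to 0.59 over 25 members, and integrins from -0.06 to -0.21 over 15. The part of GC content in these results was not tested further.

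With the GC trend removed and the replicate block together, 9 members were called, 7 higher (COL1A1, COL27A1, COL4A1, COL4A2, COL5A2, ITGB1 and ITGBL1) and 2 lower (ITGAE and ITGB2). Over all genes this fit called 13.9% higher and 12.5% lower, so the members' shares were about the background and below it. COL4A2 reached an edgeR adjusted p of 0.00244 and COL1A1 of 0.00659 in that fit. ITGB1, ITGBL1 and ITGAE thus kept their direction and were called with the block whether or not the GC trend was removed, whereas those 5 collagens were called only where GC removal and the block were combined, among the edgeR fits over all 4 mimic libraries.

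**Figure D3:**
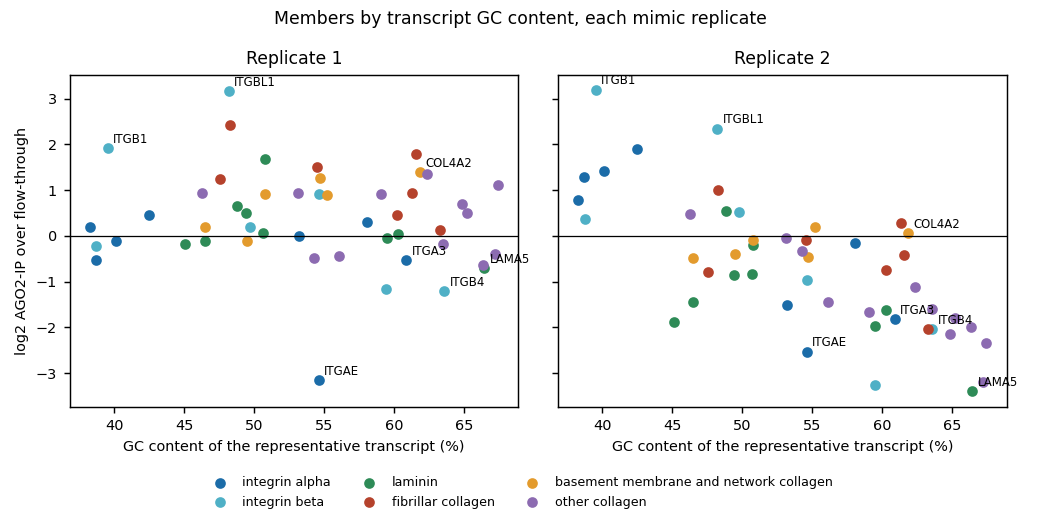
Log2 ratio of AGO2-IP over flow-through for the members given by name against the GC content of its representative transcript (percent), for mimic replicate 1 (left) and replicate 2 (right), with points coloured by class. The cloud is near flat in replicate 1 (rho -0.107 over all 50 members) and falls with GC in replicate 2 (rho -0.699), where LAMA5 lies lowest at -3.40.

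Some collagens differed between the mimic replicates in both fractions, a pattern examined after the values were seen. Replicate 2 was at least 2-fold above replicate 1 in flow-through and in AGO2-IP in 10 of 50 members, all of them collagens, beside 3.91% of all genes, and at least 2-fold below in both in 2 members, beside 4.26%, ITGA1 and ITGB8. The replicate term of the edgeR fit with the block called 5 members higher in replicate 2 and 0 lower, beside 0.78% of all genes called higher. That term counts the 2 fractions of a biological replicate as separate observations. Its calls therefore do not measure the spread between cultures, and only the sizes are given. The 5 members were COL4A4 (log2 4.63), COL1A2 (3.88), COL7A1 (3.31), COL4A1 (2.79) and COL4A2 (2.67).

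COL1A2, the second chain of type I collagen, stood at 0.98 and 2.85 normalized CPM in flow-through and AGO2-IP of replicate 1 and at 25.4 and 24.1 in those of replicate 2. COL7A1, the anchoring fibril collagen of skin, stood at 9.18 and 15 in replicate 1 and at 245 and 55.4 in replicate 2. COL5A1, another fibrillar chain, had 56.9 and 78.9 against 429 and 258. Each of these collagens was higher in replicate 2 than in replicate 1 whichever fraction was read. COL4A6, COL8A1 and COL15A1 were lower in replicate 2 in both fractions, COL4A6 with -0.49 in flow-through and -2.22 in AGO2-IP on the log2 scale. With the GC trend removed 10 members were at least 2-fold higher in replicate 2 in both fractions, ITGAV having entered and COL27A1 left, and COL4A4 was higher by 4.57 in flow-through and 4.41 in AGO2-IP.

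The integrin alpha chains had no such median shift. Their median of replicate 2 over replicate 1 was -0.69 in flow-through and -0.28 in AGO2-IP over 8 members, beside 2.27 and 1.28 in the 7 fibrillar collagens and -0.08 and -0.01 over all genes. ITGA1, a collagen receptor chain that overlaps PELO in the annotation, was lower by 2.94 and 1.11 on the log2 scale in replicate 2. The fibroblast marker list summed to 4.53 and 16.1 CPM in the flow-through libraries of replicates 1 and 2. In the AGO2-IP libraries it summed to 2.33 and 7.15 CPM, and PDGFRB was nearly all of it. The other genes of the list stayed at or below 0.721 CPM in the mimic libraries. In flow-through they too were higher in replicate 2, FAP at 0.0213 and 0.721 CPM, THY1 at 0.0213 and 0.35, PDGFRA at 0.0851 and 0.412, DCN at 0.106 and 0.453 and LUM at 0.149 and 0.185. All libraries come from 1 cultured line, and such low counts do not show which cells they came from. The relation of these markers to the collagen levels was not tested.

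**Figure D4:**
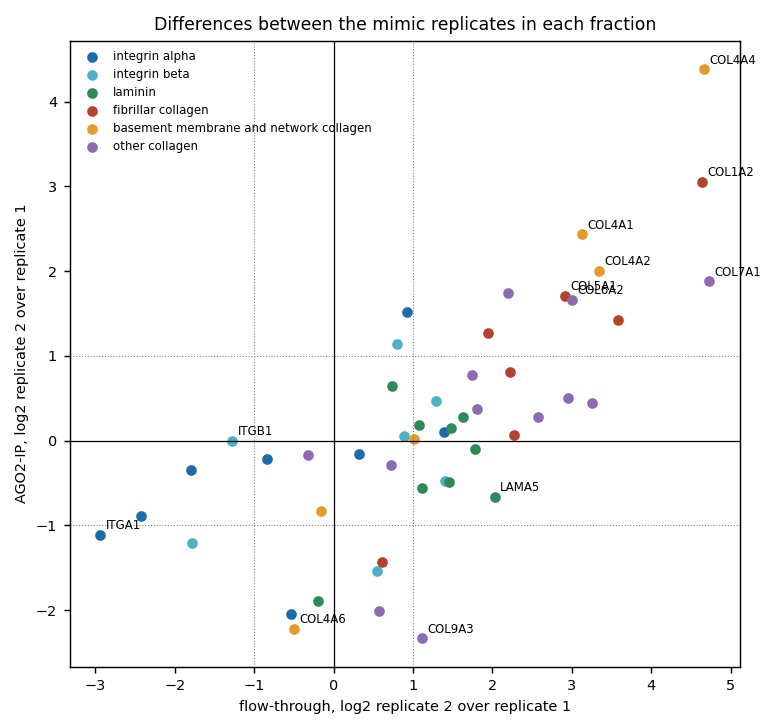
Log2 difference of mimic replicate 2 over replicate 1 in flow-through (horizontal) and AGO2-IP (vertical) for the members given by name, coloured by class, with dotted lines at 2-fold. COL4A4, COL1A2, COL4A1, COL4A2 and COL7A1 lie in the upper right corner, and no member with a 2-fold rise in both fractions is an integrin or a laminin.

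COL4A1 and COL4A2, which moved together, are transcribed in opposite directions from start sites 127 bases apart on chromosome 13 (GRCh38.p14, RefSeq), and their windows of 250 bases before to 50 bases after each start share 226 bases. The COL4A2 window at chr13:110307034-110307333, plus strand, is shown because it holds both starts. Capitals mark CCAAT and GGGCGG, searched with TATAAA on both strands with overlaps allowed.
COL4A2 promoter: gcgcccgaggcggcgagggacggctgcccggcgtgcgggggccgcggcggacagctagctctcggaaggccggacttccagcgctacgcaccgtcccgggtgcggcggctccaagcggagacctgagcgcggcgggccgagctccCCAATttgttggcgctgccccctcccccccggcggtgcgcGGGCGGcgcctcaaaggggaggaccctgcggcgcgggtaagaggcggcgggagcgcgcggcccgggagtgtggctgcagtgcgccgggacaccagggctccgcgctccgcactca

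The window is 77.7% GC and holds 1 CCAAT, 1 GGGCGG and no TATAAA. Of 35116 promoters in the table, 34.6% held CCAAT, 45% GGGCGG and 11.5% TATAAA. Of the 38 members found in the table, 21.1% held CCAAT, 65.8% GGGCGG and 13.2% TATAAA. These are counts of letters and say nothing of which factors bind.

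The control pair, AGO2-IP over flow-through in cells with the scrambled oligonucleotide, showed what the pull-down gave without the mimic. It rests on 1 library per fraction, so the ratios have no replicate check and no test. Of the 33 members with at least 200 counts in the pair, 12 had a log2 ratio of at least 1, beside 15.9% of all genes, and 0 a ratio of at most -1, beside 18.1%. The members' median was 0.70, beside 0.01 over all genes, and 30 of the 33 lay above 0. The median was 0.62 with the GC trend removed. With library size alone it was 1.60 beside an all-gene median of 0.91, so the members' gain relative to all genes was 0.69 under TMM and under that scaling.

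The collagens led in the control pair, 15 of 15 above 0 with a median of 0.94. COL1A2 had 36 counts in the control flow-through and 519 in the control AGO2-IP, a log2 ratio of 2.86. COL4A2 had 662 and 5011 counts (log2 ratio 1.97), COL4A1 276 and 1544 (1.53) and COL1A1 36 and 186 (1.39). COL1A2 and COL1A1 passed the minimum of the pair mainly through their AGO2-IP counts, the fraction in which they were higher. Their ratios rest on 36 flow-through counts each. COL4A2 and COL4A1 reached that minimum with their flow-through counts alone. The control libraries had nearly equal totals of gene counts, but mitochondrial genes filled much of the flow-through.

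ITGB1 had 3760 counts in the control flow-through and 14899 in the control AGO2-IP, a log2 ratio of 1.04. It was thus higher in AGO2-IP with the scrambled control as well, beside 1.92 and 3.20 in mimic replicates 1 and 2. ITGBL1 had 8 and 103 counts and ITGAE 81 and 22, both too few for the minimum of the pair, and their raw counts ran the same way as in the mimic pairs. LAMA5 had 1197 and 1675 counts and a TMM log2 ratio of -0.46, and ITGB4 735 and 1213 with -0.22, below 0 as in the mimic libraries. Scaled to library size alone, both were instead higher in the control AGO2-IP. LAMA5 stood at 154 and 207 CPM in flow-through and AGO2-IP, and ITGB4 at 94.6 and 150 CPM, so their sign rests on the TMM factors. Over the 33 members the control ratio and the mimic log2 fold change had a Spearman's rho of 0.547 (Pearson's r 0.487), beside 0.556 (r 0.597) over 8106 protein-coding genes.

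Setting the mimic AGO2-IP libraries against the control one asked which transcripts the mimic brought to AGO2. The members were lower in the mimic: 26 of 45 had a log2 ratio of at most -1, beside 17.4% of all genes, and 0 a ratio of at least 1, beside 17.3%. The median was -1.23 against 0.02 over all genes. In 36 of the 45 members both mimic libraries lay under the control library, which held for 39.7% of 11450 genes. With the GC trend removed 21 members were at least 2-fold lower and 2 at least 2-fold higher, with a median of -0.93. There is 1 control library, and it differed from the mimic libraries in depth and in the share of read pairs on no gene, so the part of the mimic in this shift was not tested.

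Each class had a median below 0. It was -2.08 in the integrin alpha, -1.87 in the integrin beta, -1.43 in the laminin, -0.96 in the fibrillar, -1.09 in the basement membrane and network and -1.15 in the other collagen members. ITGA3 had 14504 counts in the control AGO2-IP, and the mimic replicates had log2 ratios of -2.44 and -2.35. ITGB4 had log2 ratios of -1.89 and -1.85, ITGB5 of -1.67 and -2.16 and COL6A2 of -4.59 and -2.94. The mimic replicates were close for ITGA3 and ITGB4 and far apart for COL6A2, COL4A2 (-2.48 and -0.48) and COL1A2 (-4.31 and -1.27).

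ITGB1 changed little, with -0.48 in each replicate, ITGAE was higher by 0.78 and 0.56, and COL1A1 by 0.87 and 0.93. The control AGO2-IP library held only 22 counts of ITGAE and 186 of COL1A1. The mimic AGO2-IP libraries held 206 and 138 counts of ITGAE and 1835 and 1493 of COL1A1. Both genes thus passed the minimum through the deeper mimic libraries, the group in which they were higher. The ITGAE ratios rest on few control counts. The members with a coding seed match had a median of -1.23 over 15 and those without one of -1.27 over 30. The edgeR fit over all 6 libraries takes the lone control libraries to vary like the others. Its mimic against control AGO2-IP contrast called 0 members, with a smallest adjusted p of 0.61, and 2 genes of 13078 in all.

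**Figure D5:**
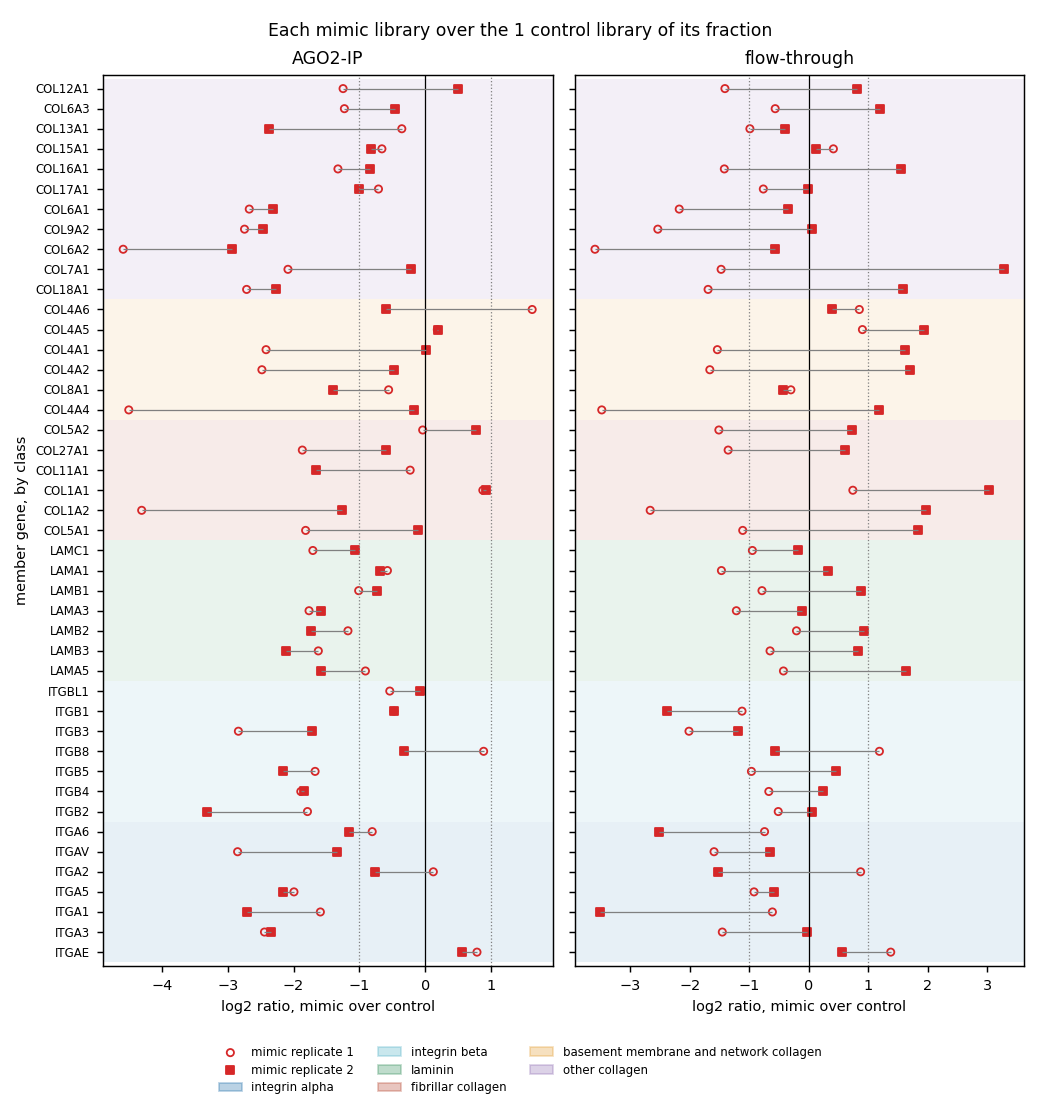
Log2 ratio of each mimic library (circle replicate 1, square replicate 2, joined by a line) over the 1 control library of the same fraction, AGO2-IP left and flow-through right, for the members given by name that have an AGO2-IP ratio. COL11A1 and ITGBL1 have no flow-through ratio, being under the minimum there. Most members lie left of 0 in AGO2-IP, and many lines cross 0 in flow-through, with replicate 1 on the left and replicate 2 on the right.

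In flow-through the same comparison gave no common direction. Of 46 members, 11 had a log2 ratio of at most -1, beside 10.2% of all genes, and 2 a ratio of at least 1, beside 10% of all genes, with a median of -0.32 against 0.05 over all genes. In 22 members replicate 1 lay under the control and replicate 2 over it, in 15 both lay under, in 6 both over and in 3 the replicates were the other way round. COL7A1 showed -1.48 and 3.28 and COL4A4 -3.48 and 1.18. ITGB1 lay under the control in both, with -1.13 and -2.38, as did ITGB3 with -2.02 and -1.19. Without flow-through replicate 2, 22 members were at least 2-fold lower and 2 higher, and without replicate 1 there were 5 lower and 12 higher. The 6-library edgeR fit called 0 members in flow-through, and 2 genes in all.

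The other genes of the pathway, 98 listed partners with enough counts, were read in the same comparisons. Between the mimic fractions the median of their log2 fold changes was -0.86, and 1 of 98 was called without the block, RPSA, the non-integrin laminin receptor and ribosomal protein, at -3.70 (SE 0.64, edgeR adjusted p 0.0383). RPSA has near-identical copies elsewhere in the genome, and only uniquely placed read pairs were counted. With the block 1 was called higher, ADAM9, a membrane protease (3.07, adjusted p 0.00218), and 6 lower. Over all genes the test called 0.413% lower without the block, and 4.6% higher and 5.08% lower with it. Those 6 were RPSA, BCAM, a receptor for laminin alpha 5 (-2.30), LIMS2 (-2.62), SORBS3 (-2.48) and ZYX (-2.14), adaptors of focal adhesions, and LOXL1, a crosslinking enzyme.

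By role, 25 collagen folding and crosslinking enzymes had a median of -0.83, 32 focal adhesion adaptors and kinases of -0.77, 18 matrix proteases and inhibitors of -1.18, 12 other matrix receptors of -1.07 and 11 other matrix proteins of -0.66. With the GC trend removed the median of the 98 was -0.39. Both AGO2-IP libraries lay below both flow-through libraries in 53 of the 98 partners, beside 28.4% of all genes. They lay above both in 10, beside 28.2%. FN1, fibronectin, had a log2 fold change of -0.83 (SE 0.60), and PTK2, the focal adhesion kinase, of 0.36 (SE 0.62), neither past the test.

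Mimic over control AGO2-IP ratios were also taken by role. The median log2 ratio was -2.06 in 11 other matrix receptors, -1.94 in 13 proteases and inhibitors, -1.73 in 22 folding and crosslinking enzymes and -1.67 in 11 other matrix proteins. In 30 focal adhesion adaptors and kinases it was -0.16, with 6 at most -1 and 3 at least 1, beside 17.4% and 17.3% of all genes. The roles were listed with earlier results of these data known, no test was made between them, and they share the 1 control library.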

How the data were processed

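Per the labels, total RNA of AGO2-IP and flow-through fractions of MDA-MB-231 cells was sequenced in 6 libraries. The authors checked reads with FastQC 0.11.9, cut adapters with Cutadapt 3.5, used STAR 2.7.11b for alignment to GRCh38 and deposited raw counts of read pairs per gene, not normalized. The unstranded column was used, which leaves out read pairs on overlapping genes or several places. Rows that name no gene were left out. The annotation release is not given in the sources used here. Of 60708 identifiers 60463 were named through GENCODE 44, and 245 were not.

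The mimic libraries were compared with glmQLFTest of edgeR 4.0.16 (R 4.3.3), using TMM factors and every gene whose mimic counts summed to 200 or more. The SE is the log2 fold change divided by the root of the F statistic. Fractions were paired by replicate number: the labels give each biological replicate of the mimic 1 library of both. Over 13078 genes the deviations of same-numbered libraries had a Pearson's r of 0.324. The methods call them independent biological replicates and do not say how cultures were separated, and p-values measure the spread between these libraries. Ratios with a control library are log2 CPM (TMM, prior count 2). Alternatives were PyDESeq2 0.5.4, DESeq2 1.42.0 size factors, other filters, strands and fits, and removal of a lowess trend (span 0.2) on transcript GC. Values were given in every library for 20 fixed genes where they were members, for members called without or with the block and for the highest and lowest of each class. The members and lists were chosen with earlier results of these data known. ITGB8, COL1A1, COL1A2, COL5A1 and COL7A1 were given values after these were seen. The values of 1 member are not reported here, and it is counted with the others.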

Additional observations from a re-analysis of the deposited data

Results flagged for a closer look

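2 members separated between the mimic fractions in 1 direction, both AGO2-IP libraries against both flow-through libraries, and had a control ratio of the other sign. ITGA3 had a log2 fold change of -1.34 in mimic AGO2-IP over flow-through and a log2 ratio of 0.22 in the control pair. LAMB3 had -1.17 and 0.70. Of 33 members with both values these were 2, and of 8225 genes 954 (11.6%) did the same. COL18A1, COL6A1 and COL6A2 also lay below 0 in each mimic pair and above 0 in the control pair, but their mimic fractions overlapped. In the edgeR fit over all 6 libraries the interaction had an adjusted p of 1 for both, with 0 members under an unadjusted p of 0.05 and 0 genes called, and 1 control library per fraction carries each ratio. No group holds enough libraries for a test of single outlying libraries.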

How the results depend on the processing

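Of 50 members, 0 were called in the comparison of the mimic fractions, 3 with the replicate block, 2 with the GC trend removed, 9 with both, 6 by PyDESeq2, and 0 to 17 with 1 library left out. The 17 (34%) were called without flow-through replicate 1, where 37.3% of all genes were, and 2 (4%) without flow-through replicate 2, beside 7.1%. The all-gene shares were 9.67% with the block, 6.19% with the GC trend removed, 26.4% with both and 14.7% by PyDESeq2, above the members' 6%, 4%, 18% and 12%. The partners called were 1, 7 with the replicate block, 4 with the GC trend removed, 17 with both, 17 by PyDESeq2, 2 with a summed count of at least 10, 0 over protein-coding genes or by strand column 4, and 0 to 44 with 1 library left out (44 without flow-through replicate 1, 4 without replicate 2). The members' median ran from -0.59 to 0.48 with 1 library left out, the extremes being those without flow-through replicate 1 and 2. COL11A2 changed sign to 0.15 with GC trend and block, and with 1 library left out ran from -2.71 to 1.05. COL6A1 changed to 0.28 with the GC trend removed and 0.28 with the block too, and ran from -1.78 to 0.023 with 1 library left out. COL6A2 changed to 0.16 and 0.044, and ran from -2.87 to 0.41. These signs turned without flow-through replicate 2. The cause was not tested. In the control pair 28 members passed 2-fold under library size alone in place of 12. The 13 members past 2-fold in flow-through against control became 17 without replicate 1 and 24 without replicate 2, and the 26 in AGO2-IP ran from 24 to 29. Seed matches in any annotated 3′ UTR took the share from 2% to 6%. Over 28 named members and the alternatives run, 341 values kept their sign and side of the call, 34 became called, 35 changed sign where the value given above lay within 1 SE of 0 and 8 where it lay farther. The smaller depth of the control libraries limits the ratios of members under 200 counts.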
